A study of Homo sapiens with 8 samples.

Results

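The genes described here are 10 regulators of microtubules: STMN1, MAP1B, MAP4, MAP7, MAPRE1, MAPRE2, MAPRE3, CLIP1, CLASP1 and CLASP2. They were taken by symbol from the platform annotation, with every probe set assigned to 1 gene, which gave 56 probe sets of 44988 and 10 genes of 18132. Messenger RNA was measured on 8 one-colour Affymetrix arrays in AGS, an established cell line from a human gastric adenocarcinoma. The arrays numbered 1 to 4 of the control group carried RNA of AGS cells labelled only as control, and those of the podofilox group carried RNA of AGS cells given podofilox at 3.4 nM for 72 hours. Podofilox, or podophyllotoxin, comes from plants of the mayapple group, and by binding tubulin it prevents assembly of microtubules. The labels do not say what the control cells were given in place of the drug or whether replicates were separate cultures, so the p-values rest on array-to-array spread that may be technical.

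Microtubules are hollow polymers of tubulin that grow and shrink mainly at their plus ends and serve as tracks for transport and as fibres of the mitotic spindle. Proteins of the EB family, encoded by the MAPRE genes, bind the growing plus end and bring other factors there, among them the rescue factor CLIP-170, encoded by CLIP1, and the CLASP proteins, which stabilise the end. MAP1B, MAP4 and MAP7 bind along the polymer, whereas stathmin, encoded by STMN1, holds free tubulin and favours shrinkage.

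Across genes, which are not independent replicates, the correlation between arrays was 0.997 to 0.999 within a group and 0.995 to 0.997 between groups. Of 5 epithelial markers (EPCAM, KRT8, KRT18, KRT19 and CLDN4), control means ran from 12.34 to 13.28 on the log2 scale of the deposited values, and CLDN4 was the 1 that passed the test. Marker lists of neurons, fibroblasts and endothelial cells, of 5 genes each, had control means of 3.72 to 7.35, 3.99 to 6.02 and 4.72 to 6.93. Of 4 immune markers, LYZ was at 13.60 and the others lay lower, down to 3.62. Of the genes of these other lists, NEFL and CDH5 passed the test. Control probe sets for the 3′ part of 18S ribosomal RNA ranged from 13.32 to 13.70 in the control group and from 12.43 to 12.98 with podofilox (exact permutation test, two-sided, p = 0.0286; with 70 arrangements of the arrays no smaller p can occur). The middle part differed by -0.59 (exact permutation p = 0.0286), and on the 5′ part the groups overlapped, at 12.17 to 12.36 and 11.93 to 12.25 (exact permutation p = 0.171). On the 3′ part, the values of arrays 1 and 2 of each group lay close together, as did those of arrays 3 and 4, so differences are also given within each of these array pairs below. The part of the ribosomal signal in the results was not tested. The 3′ minus 5′ difference of the GAPDH control probe sets was -0.13 to -0.08 in the control group and -0.16 to -0.11 with podofilox.

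The promoter windows of the 4 members whose brightest probe set changed are printed here to show the sequence before a transcription start of each. Each is the 250 bases before the transcription start nearest to the annotated start of the gene, from RefSeq on GRCh38.p14, read 5′ to 3′ on the strand of the gene, with capitals for matches on either strand to the TATA box (TATAAA), the CCAAT box, the GC box (GGGCGG), the E-box (CACGTG) or the cyclic AMP response element (TGACGTCA). They lie at chr18:34976777-34977026 (plus strand, MAPRE2), chr12:122422670-122422919 (minus strand, CLIP1), chr5:72107225-72107474 (plus strand, MAP1B) and chr3:33718255-33718504 (minus strand, CLASP2). For CLIP1 the start used is 287 bases inside the annotated start of the gene, so its window lies within the annotated gene.
MAPRE2: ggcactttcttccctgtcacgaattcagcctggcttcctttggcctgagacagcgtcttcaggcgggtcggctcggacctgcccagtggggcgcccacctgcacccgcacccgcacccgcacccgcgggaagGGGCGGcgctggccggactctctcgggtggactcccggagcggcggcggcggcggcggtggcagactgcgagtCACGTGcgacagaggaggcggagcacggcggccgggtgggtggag
CLIP1: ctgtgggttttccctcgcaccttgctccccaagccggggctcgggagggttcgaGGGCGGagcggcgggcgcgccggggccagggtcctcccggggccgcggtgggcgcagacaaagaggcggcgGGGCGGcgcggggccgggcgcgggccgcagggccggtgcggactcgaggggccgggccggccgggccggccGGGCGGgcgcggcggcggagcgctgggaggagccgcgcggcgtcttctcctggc
MAP1B: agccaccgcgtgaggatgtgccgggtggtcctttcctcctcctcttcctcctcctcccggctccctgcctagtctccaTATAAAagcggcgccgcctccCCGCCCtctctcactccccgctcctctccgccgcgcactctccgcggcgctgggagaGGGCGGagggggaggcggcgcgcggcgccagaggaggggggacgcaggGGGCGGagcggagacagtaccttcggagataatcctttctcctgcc
CLASP2: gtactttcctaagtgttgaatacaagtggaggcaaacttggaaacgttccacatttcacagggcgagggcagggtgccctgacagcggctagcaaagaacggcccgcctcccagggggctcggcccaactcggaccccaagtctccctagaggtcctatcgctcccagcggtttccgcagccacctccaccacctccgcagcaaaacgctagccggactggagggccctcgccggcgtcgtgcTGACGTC
Matches were sought in the 300 bases that also take in the first 50 past the start, and no 2 of the matches overlap. The window of MAPRE2 held GGGCGG 1 time and CACGTG 1 time, that of CLIP1 held GGGCGG 4 times (1 of them past the printed bases), and that of MAP1B held GGGCGG 3 times and TATAAA 1 time. The window of CLASP2, the member that fell, held TGACGTCA 1 time, with its last base past the start. Among all 35116 promoter windows of this length, 45.0% held GGGCGG, 34.6% CCAAT, 11.5% TATAAA, 7.26% CACGTG and 1.85% TGACGTCA. Of the members whose brightest probe set did not pass the test, MAPRE1, MAP4, MAP7 and MAPRE3 held GGGCGG 5, 3, 3 and 1 times. The windows of STMN1 and CLASP1 did not hold it. That of MAPRE1 also held CACGTG 1 time and TATAAA 1 time. These matches describe the letters and were not tested against the expression values. The RefSeq promoter set holds a further start window for MAPRE2 and MAP1B and 2 further ones for CLASP2.

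After podofilox the cells had more mRNA for the EB protein MAPRE2 (1.315-fold), for CLIP1 (1.24-fold) and for MAP1B (1.17-fold), and less for CLASP2 (1.19-fold lower). MAPRE1, STMN1, MAP4, MAP7, MAPRE3 and CLASP1 did not pass the test on their brightest probe set, with differences of podofilox minus control from -0.11 to 0.10. The words rose and fell are used where the Benjamini-Hochberg adjusted p by limma, over all rows tested, was under 0.05. By this rule 3 of the 10 members rose and 1 fell, beside 8.55% of all genes that rose, 12.5% that fell and 21% that did either. The median difference of the members was -0.01, and that of all genes was 0.01. Over all probe sets, 14 of 56 rose and 6 fell, where 7.83% of all single-gene probe sets rose, 10.2% fell and 18% did either, and probe sets of the same gene are not independent of each other. The count of fallen probe sets went from 6 to 3 on leaving out control array 1 or podofilox array 1, fits in which 8.29% and 9.55% of all probe sets fell. As each array read RNA from many cells together, fewer cells with a transcript and less of it per cell cannot be told apart. Levels of different probe sets are not on a common scale, so genes are compared by their changes.

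**Figure D1:**
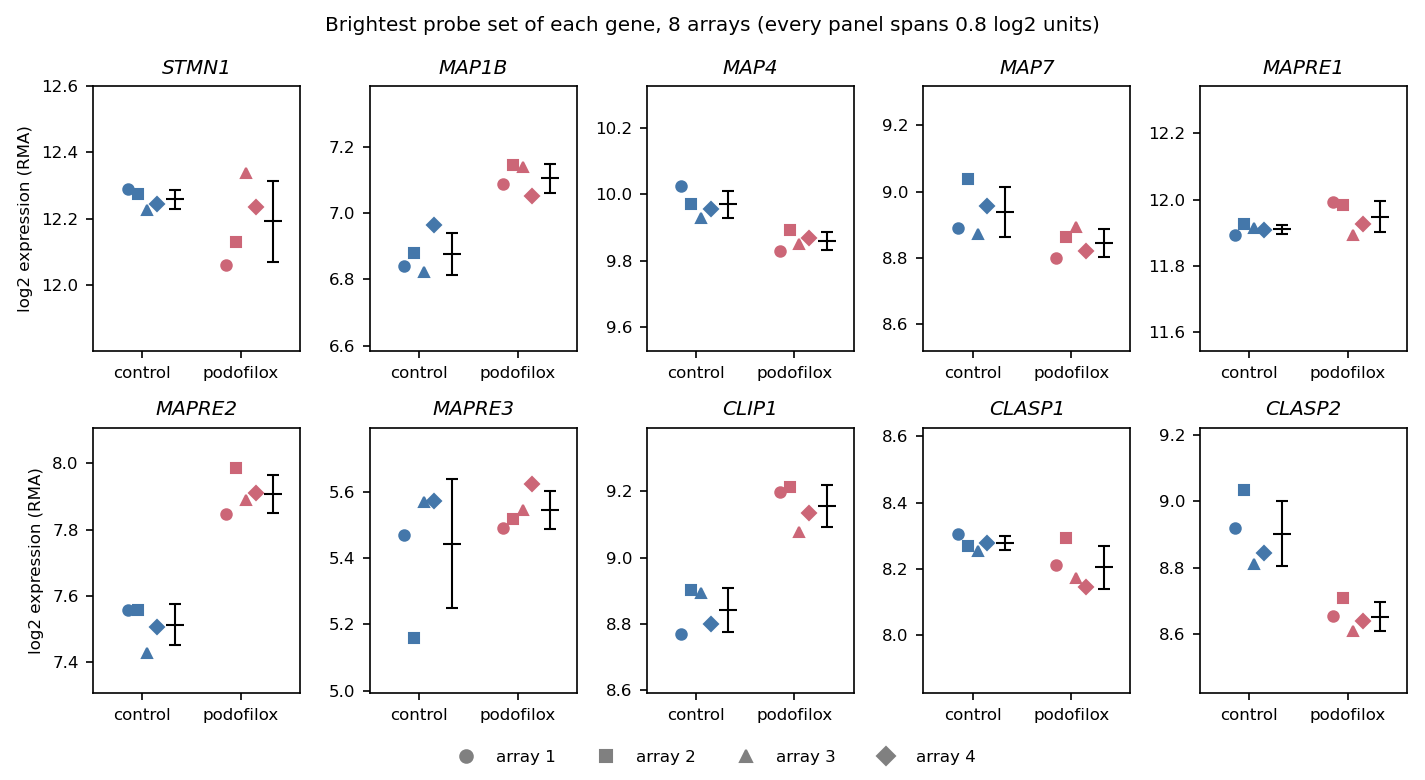
Log2 expression (vertical axis, every panel spanning 0.8 units) of the brightest probe set of each of the 10 genes on the 4 control and 4 podofilox arrays; symbols mark the array number, and bars give mean and SD. Podofilox arrays lie above all control arrays for MAPRE2, CLIP1 and MAP1B and below them for CLASP2 and MAP4, while the groups overlap in the other 5 genes.

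Among the EB genes, MAPRE2 moved most. Its brightest probe set, 11725297_a_at, read, in the order of the array numbers, 7.56, 7.56, 7.43 and 7.51 in control cells and 7.85, 7.98, 7.89 and 7.91 in podofilox-treated cells, an order kept for the other genes. The lowest podofilox array was thus above the highest control array. Its mean was 7.51 ± 0.06 in control and 7.91 ± 0.06 in treated cells (SD, n = 4 each), which differ by 0.40 (SE 0.05, 95% interval 0.29 to 0.50, limma adjusted p = 0.000421). Of its 7 probe sets, 5 rose, by 0.34 to 0.72, and on each of these 5 the groups were apart. The steepest rise was on the third brightest, with 6.69, 6.92, 6.30 and 6.44 on the control arrays and 7.30, 7.28, 7.36 and 7.28 on the podofilox arrays. There the podofilox arrays lay close together and the control arrays were spread out, so that arrays 1 and 2 alone gave 0.48 and arrays 3 and 4 alone 0.95. The other 2 probe sets of MAPRE2 were dim, at 4.20 and 3.71 in control cells, and did not pass, with differences of 0.10 and -0.01. Each of the 5 calls was kept on leaving out any 1 array.

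MAPRE1 encodes EB1, the EB protein best known for recruiting partners to plus ends. Its brightest probe set, 11715587_at, read 11.89, 11.93, 11.91 and 11.91 on the control arrays and 11.99, 11.98, 11.89 and 11.93 on the podofilox arrays. The groups overlapped, and the difference was 0.04 (SE 0.04, 95% interval -0.05 to 0.13, limma adjusted p = 0.568). Its other probe set differed by -0.01, so neither reading of this bright transcript passed, and the interval leaves room for changes up to its bounds.

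MAPRE3, which encodes EB3, was dim on each of its 4 probe sets, from 3.25 to 5.44 in control cells. The brightest read 5.47, 5.16, 5.57 and 5.57 on the control arrays and 5.49, 5.52, 5.54 and 5.62 on the podofilox arrays. Control array 2 lay below the rest, and the difference of 0.10 (SE 0.09, 95% interval -0.09 to 0.29) was 0.01 without it. The second brightest rose by 0.18 (SE 0.05, limma adjusted p = 0.0393), which no longer passed without any 1 of 6 arrays, that is all but control array 4 and podofilox array 1 (adjusted p up to 0.107). The other 2 differed by 0.21 and 0.01 and did not pass.

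The changes of the paralogs were compared array by array. The change of MAPRE1 minus that of MAPRE2 was -0.36 (SE 0.05), with the groups apart. The two-sided exact permutation p was 0.0286, or 0.0571 when adjusted over the 4 pairs compared, which misses 0.05. As 0.0286 is the smallest p this test can give, its adjusted value depends on how many of the 4 pairs reach it. With limma on the same differences, the adjusted p of MAPRE1 minus MAPRE2 was 0.000477. This limma fit held only the 4 pairs, some of which share genes, so its moderated errors rest on few rows. MAPRE2 minus MAPRE3 came to 0.29 (SE 0.13, exact permutation p = 0.114, adjusted 0.152), and MAPRE1 minus MAPRE3 to -0.06 (SE 0.11, exact permutation p = 0.771). By limma the difference between MAPRE2 and MAPRE3 passed as well (adjusted p = 0.0284), and it did not pass in 6 of the 8 fits that left out 1 array. CLASP1 minus CLASP2 was 0.18 (SE 0.05), again with exact permutation p = 0.0286 and 0.0571 after adjustment, and limma adjusted p = 0.0284. By limma this pair did not pass in 4 of the 8 fits that left out 1 array.

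**Figure D2:**
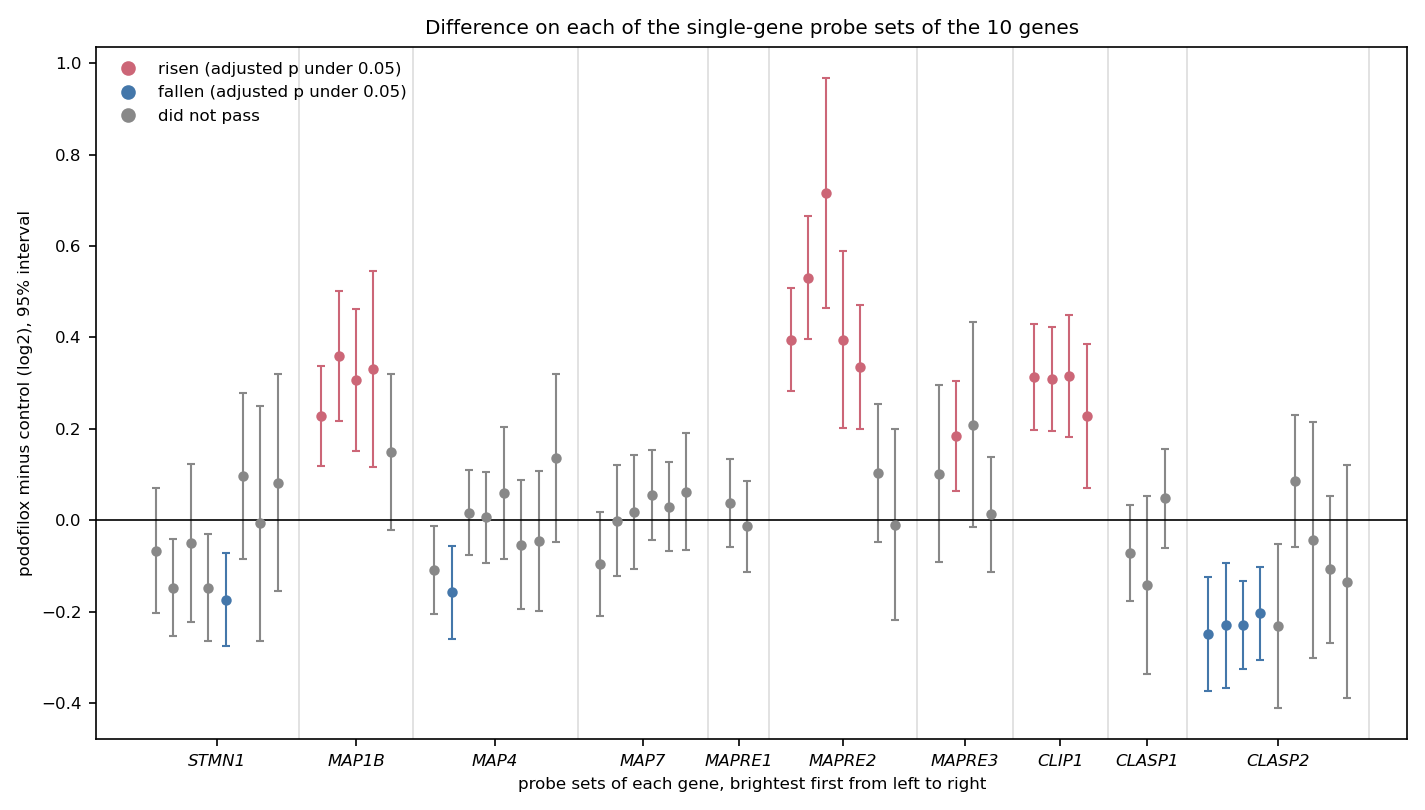
Podofilox minus control on the log2 scale (vertical axis) for each of the 56 probe sets, brightest first within each gene, with 95% intervals from limma. The 14 risen probe sets (red) belong to MAP1B, MAPRE2, MAPRE3 and CLIP1, and the 6 fallen ones (blue) to STMN1, MAP4 and CLASP2; grey points did not pass.

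CLIP1 encodes CLIP-170, which rides on growing ends by binding the tails of tubulin and EB proteins. All 4 of its probe sets rose, by 0.23 to 0.32. The brightest, 11743785_x_at, is of the _x_at kind, whose probes can bind other transcripts, and it read 8.77, 8.90, 8.89 and 8.80 on the control arrays and 9.20, 9.21, 9.08 and 9.13 on the podofilox arrays. No podofilox value came down to a control value. The mean was 8.84 ± 0.07 in control and 9.15 ± 0.06 in treated cells (SD, n = 4 each), which differ by 0.31 (SE 0.05, 95% interval 0.20 to 0.43, limma adjusted p = 0.00195). The third brightest, of another kind, rose by 0.32 (SE 0.06), so the rise did not rest on the _x_at probe set. The groups were apart on each of the 4 probe sets. The call of the dimmest (0.23, SE 0.07, limma adjusted p = 0.0494) was lost without any 1 of 6 arrays, that is all but control array 2 and podofilox array 1 (adjusted p up to 0.119), and arrays 1 and 2 alone gave 0.09 and arrays 3 and 4 alone 0.37.

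CLASP2 was the member that fell. CLASP proteins bind at plus ends and favour pausing and rescue over shrinkage, also at the cell edge. The brightest probe set of CLASP2, 11733858_a_at, read 8.92, 9.03, 8.81 and 8.84 on the control arrays and 8.66, 8.71, 8.61 and 8.64 on the podofilox arrays. The groups were apart, and the mean was 8.90 ± 0.10 in control and 8.65 ± 0.04 in treated cells (SD, n = 4 each), which differ by -0.25 (SE 0.05, 95% interval -0.37 to -0.13, limma adjusted p = 0.00964). Of its 9 probe sets the 4 brightest fell, with differences from -0.25 to -0.20, and they lay apart in all 4. The fifth had a like difference of -0.23 with a wider spread, since podofilox array 3 was at 6.83 and the others at 7.11 to 7.25 (limma adjusted p = 0.0753). The sixth differed by 0.09, and the 3 dimmest by -0.04, -0.11 and -0.13, with none of the 4 past the test. Of the 4 calls, that of the second brightest was lost without any 1 of 5 arrays, namely control arrays 1 and 2 and podofilox arrays 1, 2 and 4 (adjusted p up to 0.0706), and the other 3 were kept. As the mean over all probe sets of CLASP2 the difference was -0.15 (limma adjusted p = 0.0352).

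CLASP1, its paralog, read 8.31, 8.27, 8.26 and 8.28 on the control arrays and 8.21, 8.29, 8.17 and 8.15 on the podofilox arrays with its brightest probe set. Podofilox array 2 lay within the control values, and the difference was -0.07 (SE 0.04, 95% interval -0.17 to 0.03, limma adjusted p = 0.299). The other 2 probe sets of CLASP1 differed by -0.14 and 0.05.

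**Figure D3:**
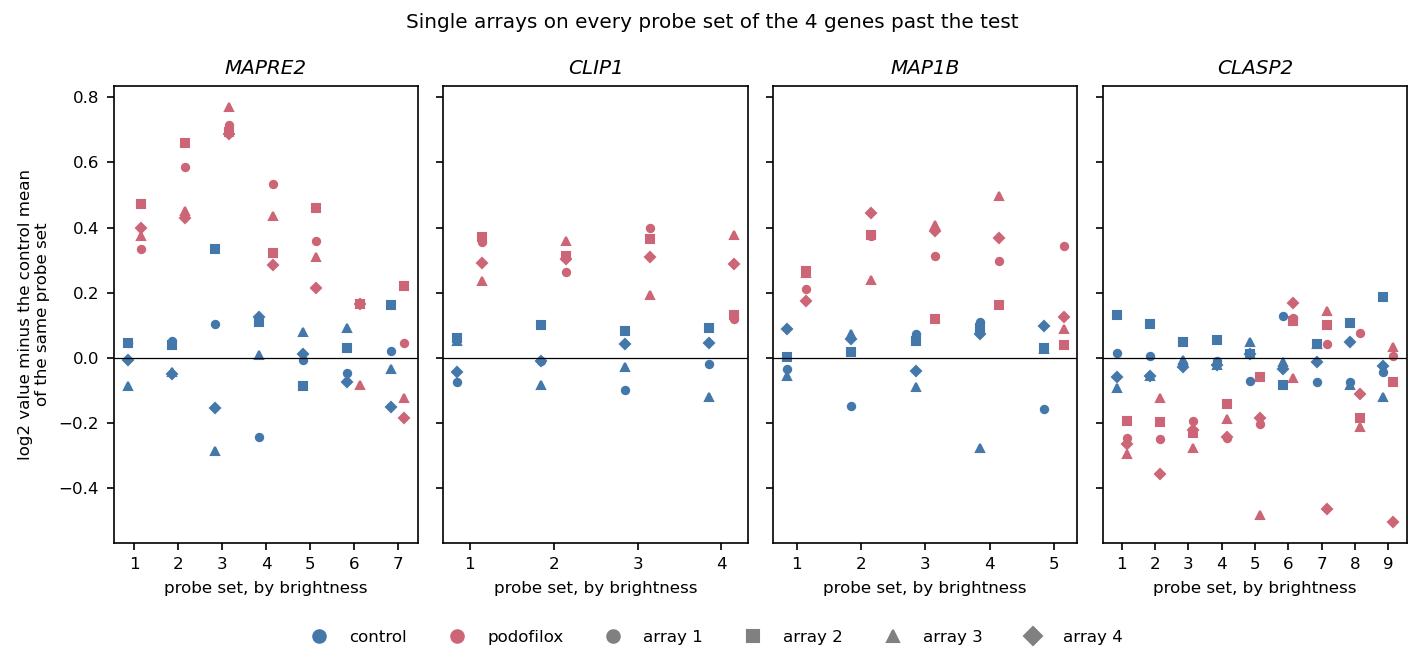
Single arrays on every probe set of MAPRE2, CLIP1, MAP1B and CLASP2, as log2 value minus the control mean of that probe set (vertical axis), control in blue and podofilox in red, with symbols for the array number. The groups are apart on 5 of 7, 4 of 4, 4 of 5 and 4 of 9 probe sets, beside 24.2% of all single-gene probe sets. These genes are shown because their brightest probe set passed the test on the same arrays, which favours groups that are apart.

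Of the proteins that bind along the polymer, MAP1B rose. MAP1B is best known from growing axons. Its brightest probe set, 11744047_a_at, read 6.84, 6.88, 6.82 and 6.96 on the control arrays and 7.09, 7.14, 7.14 and 7.05 on the podofilox arrays. The groups were apart, and the closest values were those of control array 4 and podofilox array 4. The mean was 6.88 ± 0.06 in control and 7.11 ± 0.04 in treated cells (SD, n = 4 each), which differ by 0.23 (SE 0.05, 95% interval 0.12 to 0.33, limma adjusted p = 0.00667). The next 3 probe sets were dimmer, at 5.98, 5.01 and 4.92 in control cells, and rose by 0.36, 0.31 and 0.33. On the third brightest, arrays 1 and 2 alone gave 0.15 and arrays 3 and 4 alone 0.46. The dimmest, at 4.78 in control cells, differed by 0.15 and did not pass. The call of the fourth was lost without any 1 of 6 arrays, that is all but control array 1 and podofilox array 2 (adjusted p up to 0.0939), and arrays 1 and 2 alone gave 0.13 and arrays 3 and 4 alone 0.53. Of 5 neuronal markers (RBFOX3, SYP, SNAP25, NEFL and ELAVL4), NEFL passed the test, at a control mean of 3.72, and the summed linear signal of the list ran from 373 to 430 on control arrays and from 409 to 444 on podofilox arrays. Their part in the result was not tested.

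MAP4, the main microtubule-binding protein of many cells outside the nervous system, passed the test on 1 of its 8 probe sets. The brightest, 11716493_a_at, read 10.02, 9.97, 9.93 and 9.96 on the control arrays and 9.83, 9.89, 9.85 and 9.87 on the podofilox arrays. The groups were apart, yet the difference of -0.11 (SE 0.04, 95% interval -0.20 to -0.02) did not pass over all genes (limma adjusted p = 0.0842), and it passed among genes above the median signal (adjusted p = 0.0239) and with an intensity trend and robust estimation (adjusted p = 0.0323), fits in which 28.6% and 15% of all genes fell. The second brightest fell by 0.16 (SE 0.05, limma adjusted p = 0.0375), which no longer passed without any 1 of 7 arrays, that is all but control array 4 (adjusted p up to 0.0894). The other 6 differed by -0.05 to 0.14 and did not pass. The groups were apart in 5 of the 10 members, with podofilox below in 2 (CLASP2 and MAP4) and above in 3, where 26.2% of all genes had groups apart, 15.6% below and 10.6% above. Of the 56 probe sets, 8 lay below and 14 above, where 24.2% of all probe sets had groups apart, 13.8% below and 10.5% above.

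MAP7, which binds the lattice and recruits kinesin-1, did not pass on any of its 6 probe sets. The brightest read 8.89, 9.04, 8.87 and 8.96 on the control arrays and 8.80, 8.86, 8.89 and 8.82 on the podofilox arrays. Podofilox array 3 and control arrays 1 and 3 crossed, and the difference was -0.10 (SE 0.05, 95% interval -0.20 to 0.01, limma adjusted p = 0.208). The other 5 probe sets differed by -0.00102 to 0.06.

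STMN1 encodes stathmin, a tubulin-binding protein abundant in dividing cells. Its brightest probe set, 11719667_s_at, read 12.29, 12.28, 12.23 and 12.24 on the control arrays and 12.06, 12.13, 12.34 and 12.24 on the podofilox arrays. Podofilox arrays 1 and 2 were low and array 3 was the highest of all 8, so arrays 1 and 2 alone gave -0.19 and arrays 3 and 4 alone 0.05. Over all arrays it was -0.07 (SE 0.06, 95% interval -0.20 to 0.07, limma adjusted p = 0.486). The 5 bright probe sets of STMN1, with control means from 9.39 to 12.26, each had a lower mean with podofilox, by differences from -0.17 to -0.05. The fifth of them read 9.39, 9.33, 9.40 and 9.43 on the control arrays and 9.19, 9.17, 9.23 and 9.27 on the podofilox arrays, and it fell by 0.17 (SE 0.05, limma adjusted p = 0.0243). That call was lost without any 1 of 5 arrays, namely control arrays 1, 3 and 4 and podofilox arrays 1 and 2 (adjusted p up to 0.0844). The 3 dim probe sets, at 4.12 to 4.67 in control cells, differed by -0.00703 to 0.10 and did not pass.

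Whether probe sets of the same gene changed differently was tested for 46 pairs, each the brightest against another. After adjustment 0 of 46 passed by the exact permutation test, which would need 27 pairs at its smallest p of 0.0286, and 8 pairs reached that p (MAP7 in 3 pairs, MAP4 and MAPRE2 in 2 each, CLASP2 in 1). By limma on the same differences 2 pairs passed, each with an adjusted p of 0.0362. They were the brightest against the dimmest probe set of MAPRE2 (difference of changes 0.40) and the brightest against the sixth of CLASP2 (-0.33). That of MAPRE2 rests on a dim reading, at 3.71 in control cells. Pairs of the same gene share its brightest probe set, so the rows of this limma fit are not independent. In CLIP1 the change of the brightest minus that of each of the others was -0.00273 to 0.08.

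Other microtubule regulators were read from a list of 43 genes chosen by role, of which 42 were measured. Of these 42 genes 4 rose and 6 fell by limma, beside 8.55% and 12.5% of all genes, and their median difference was 0.04. The lattice-binding protein EML2 rose most, by 0.63 (SE 0.11, adjusted p = 0.00283) on its brightest probe set and by 0.39 as the mean over its probe sets (adjusted p = 0.00297), and MAP2, a protein of dendrites, by 0.24 (SE 0.07) with groups that overlapped. MAP9, which acts on the spindle, rose by 0.19 (SE 0.04) at a dim 3.17 in control cells, which did not pass as the mean over probe sets (0.06, adjusted p = 0.328). CLIP2, the closest relative of CLIP1, rose by 0.16 (SE 0.05). DCTN1, the dynactin subunit that also tracks plus ends, changed by -0.30 (SE 0.06, adjusted p = 0.00468), and TTL, which adds tyrosine back to alpha-tubulin, by -0.23 (SE 0.04, adjusted p = 0.00372). The AAA ATPase gene FIGNL1, also known from DNA recombination, changed by -0.21 (SE 0.04), the severing enzyme SPAST by -0.16 (SE 0.05), TACC3, a spindle partner of CKAP5, by -0.16 (SE 0.05) and EML4 by -0.15 (SE 0.05). As the mean over its probe sets TACC3 did not pass (-0.07, adjusted p = 0.287).

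EML2 read 10.14, 10.15, 10.54 and 10.59 on the control arrays and 11.04, 11.10, 10.87 and 10.93 on the podofilox arrays. The groups were apart, but control arrays 1 and 2 lay well below control arrays 3 and 4, and arrays 1 and 2 alone gave a difference of 0.93 and arrays 3 and 4 one of 0.33. DCTN1 read 8.28, 8.42, 8.50 and 8.33 on the control arrays and 8.14, 8.13, 8.01 and 8.03 on the podofilox arrays, with the groups apart. By role, 3 of 13 lattice-binding genes rose and 1 fell, and 1 of 12 plus-end genes rose and 2 fell. Of the severing genes 2 of 5 fell, and of the tubulin-modifying genes 1 of 6 fell. Beside these stand 8.55% of all genes that rose and 12.5% that fell, and the roles hold too few genes to compare with those shares. The 3 other stathmin genes and the 3 minus-end genes did not pass, with differences of -0.18 to 0.20 and -0.07 to 0.15. Of the 10 calls, those of EML2, MAP9, DCTN1, FIGNL1 and TTL were kept on leaving out any 1 array. The count of risen genes went from 4 to 2 without control array 1, 2 or 3 or podofilox array 2, fits in which 6.28% to 7.53% of all genes rose. That of fallen genes went from 6 to 3 without control array 4, podofilox array 2 or podofilox array 4, fits in which 9.08% to 10.4% of all genes fell.

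**Figure D4:**
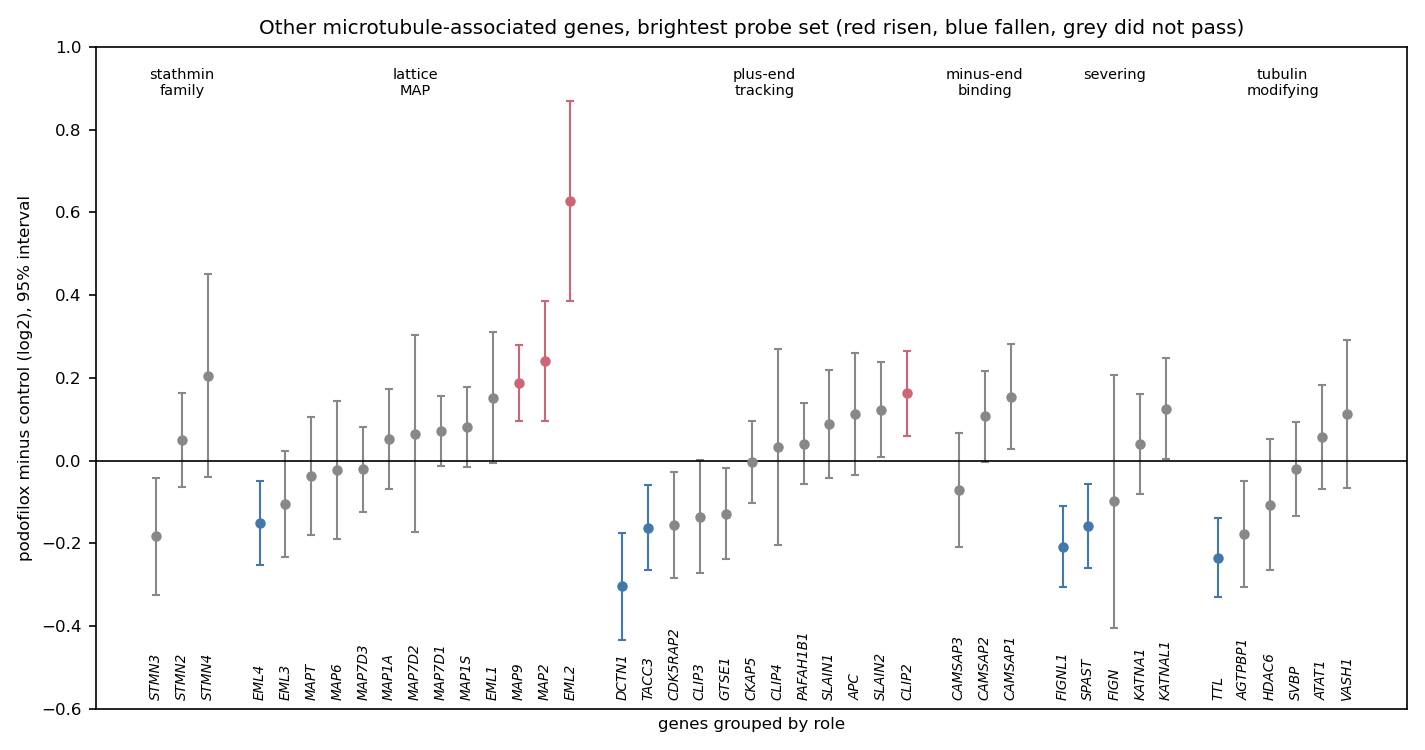
Podofilox minus control on the log2 scale (vertical axis) with 95% intervals for the brightest probe set of 42 other microtubule-associated genes, grouped by role. EML2 at 0.63 and DCTN1 at -0.30 lie at the ends of the range.

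For the 3 members with the smallest p, the genes with the most similar values over the 8 arrays were listed as a description, since any gene that changed shares the difference between the groups. For MAPRE2 these were C12orf75, EFCAB14 and GPRC5A (Pearson r of 0.996, 0.994 and 0.993). For CLIP1 they were SOX4, UBE2T and IFITM3 (0.995, 0.994 and 0.994), and for MAP1B they were SAR1A, CDK2 and IZUMO2 (0.981, 0.978 and 0.978).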

How the data were processed

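Per the submitters' processing notes, the authors made the deposited values with RMA, which corrects the background, normalizes the arrays and summarises the probes of a set; the software used is not given in the sources used here. Deposited were log2 expression values per probe set, a scale read from their range of 2.64 to 15.0, with no detection calls. Precision is limited by the number of arrays. Of 49395 probe sets, 44988 were assigned to 1 gene, 1832 to several, 2473 were unnamed and 102 were controls. Each gene was represented by its brightest single-gene probe set. limma 3.58.1 in R 4.3.3 (lmFit, eBayes, group as the only term) was run on 18132 genes and again on 44988 probe sets, with two-sided tests and moderated standard errors. On simulated data with 18132 genes, it recovered 74% of 100 genes shifted by 0.4 and 13% of 100 shifted by 0.2. No other gene was shifted there, whereas 21% of all genes passed in the real fit, so these shares do not carry over directly.

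The members, the list of other microtubule genes, the marker lists and the array pairs were chosen with earlier results of these data known. The text names all members, list genes past the test (up to 6 in each direction) and, for the 3 members with the smallest p, the 3 genes with the highest correlation. Other single markers were named after their values were seen. Differences between paralogs or probe sets used exact permutation tests over 70 arrangements. Alternatives were a filter on dim rows, repeated quantile normalization, median centring, an intensity trend with robust estimation, blocks for replicate number and array pair, other representatives of a gene, limma for row differences, and each array left out. Figures were drawn with matplotlib 3.10.9.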

Additional observations from a re-analysis of the deposited data

Results flagged for a closer look

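Within groups of 4 arrays, a value was marked where its gap to the nearest other array took a larger share of the range of the group than Dixon's critical value at 95%. This marked 8 of 132 groups (6.06%), and chance marks about 1 in 20. Podofilox array 3 was marked in 4 of the 8: at 11.05 on the third brightest probe set of STMN1, where the other podofilox arrays lay from 10.68 to 10.74, at 4.50 on the dimmest of STMN1 (others 4.05 to 4.12), at 4.12 on the sixth of MAPRE2 (others 4.37) and at 5.57 on the second of CLASP1 (others 5.93 to 5.98). Podofilox array 4 was at 6.06 on the seventh probe set of CLASP2, below the others at 6.56 to 6.66. Control array 3 was at 4.65 on the fourth probe set of MAP1B (others 5.00 to 5.03) and at 3.10 on the brightest of MAP9 (others 3.18 to 3.20). Control array 2 was at 7.43 on the fourth probe set of CLASP2 (others 7.35 to 7.36). Of the probe sets with a marked array, the fourth of MAP1B lost its call without control array 3, and the fourth of CLASP2 kept its call without control array 2.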

How the results depend on the processing

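The rises of MAPRE2, CLIP1 and MAP1B and the fall of CLASP2 kept their direction and passed the test in each of the 16 alternative fits, with differences from 0.35 to 0.42, 0.29 to 0.34, 0.21 to 0.27 and -0.28 to -0.15 and adjusted p up to 0.00494, 0.0135, 0.0357 and 0.0352. The count of risen members was 3 in each fit, and that of fallen members was 2 among genes above the median signal (of 9 tested) and 2 with an intensity trend and robust estimation, since MAP4 joined CLASP2. Of all genes, 28.6% fell in the former fit and 15% in the latter. Above the median signal 37 of the 56 probe sets were tested, of which 9 rose and 10 fell, beside 16.3% and 23.4% of all probe sets in that fit. With the intensity trend 10 of 56 fell, beside 12.4% of all. Leaving out 1 array gave 11 to 13 risen and 3 to 5 fallen probe sets, where 5.37% to 7.67% of all probe sets rose and 7.18% to 9.55% fell. It gave 2 to 4 risen and 3 to 7 fallen list genes, where 5.84% to 8.68% of all genes rose and 9.08% to 11.8% fell. The replicate block gave 11 risen and 3 fallen probe sets, where 5.35% and 7.06% of all probe sets did. For list genes it gave 2 risen and 3 fallen, where 6.15% and 8.96% of all genes did, so calls were fewer over all features too. Without _x_at and _s_at probe sets 3 of 40 list genes fell, where 11.4% of all genes fell. DCTN1 and FIGNL1 were not tested there, and EML4 had a limma adjusted p of 0.0504. The deviations of arrays with the same number from their group means correlated at -0.13, 0.09, -0.24 and 0.06. With 4 arrays per group, whose deviations cancel out, this cannot settle whether the numbers pair the arrays. The replicate block ended no call of a member gene, and it kept 14 of the 20 calls of member probe sets. For differences between probe sets, limma passed 2 pairs, 1 with the replicate block and 0 to 2 with an array left out, against 0 by permutation. For paralogs, the permutation test passed 0 of 4 pairs, 3 after repeated quantile normalization and 0 with the mean over probe sets. In limma fits 3 passed, 3 with the replicate block and 1 to 3 with an array left out. With the mean over probe sets CLASP1 minus CLASP2 was 0.09 (exact permutation, adjusted p = 0.143). MAPRE3 could not be tested among genes above the median signal. No member changed sign while called, and the causes of the shifts in count were not tested.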
